A study of Mus musculus with 9 samples.

Results

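The ephrin, semaphorin, Slit and netrin guidance genes of mouse intrahepatic cholangiocarcinoma (iCCA) cells were followed in the presence and after targeting of Vcam1, which encodes a cell adhesion molecule of the immunoglobulin superfamily. Members were chosen by gene symbol, with earlier results of these data known, which gave 68 of the 55276 genes of the count table. They comprised 8 ephrins, 14 Eph receptors, 20 semaphorins, 9 plexins, 2 neuropilins, 4 netrins, 4 Unc5 receptors, 3 Slits and 4 Robo receptors. The cells are the PPTR line, grown from liver cancer organoids of the Prom1CreERT2; Ptenflx/flx; Tp53flx/flx; Rosa-ZsGreen mouse model, in which Cre recombinase is expressed from the Prom1 locus, so that every group carries these alleles. Vcam1Ctrl cells, labelled as wild type for Vcam1, were compared with Vcam1KO1 and Vcam1KO2 cells, each of which is 1 single-cell clone made with Cas9 and a guide in Vcam1. There were 3 libraries per group, collected from different passages, and all were grown as 2D cultures in serum-containing medium. Since each clone is 1 line, the loss of Vcam1 and other differences that a clone carries cannot be told apart. P values measure the spread between these libraries, with no animal or separate targeting behind each of them.

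Guidance genes were named for steering growing axons, and outside the nervous system the same ligands and receptors act in vessels, epithelia and tumours on cell adhesion, repulsion and movement. Ephrins are ligands held on the cell surface, the A class by a lipid anchor and the B class by a transmembrane helix, and they signal on contact to Eph receptors, a family of receptor tyrosine kinases, while the ligand-bearing cell can also respond. Semaphorins are secreted or membrane-bound ligands of plexins, and most secreted ones need a neuropilin as co-receptor. Netrins are secreted, laminin-related ligands of the Dcc and Unc5 receptors, and Slits are large secreted ligands of Robo receptors. Most of these receptors act on the actin cytoskeleton through small GTPases.

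Library totals lay between 53415907 and 125223073 counts, and members took between 0.358% and 0.496% of them. Vcam1 itself stood at 248, 221 and 329 CPM in Vcam1Ctrl, 98.8, 92.4 and 128 CPM in Vcam1KO1 and 119, 99.4 and 82.96 CPM in Vcam1KO2 cells, with every clone library below every Vcam1Ctrl library. Levels are in CPM, a unit that divides a count by the size of its library after TMM scaling. Means are given ± SD over 3 libraries and log2 fold changes ± standard error, and paired adjusted p values give Vcam1KO1 first. This standard error is the absolute log2 fold change divided by the square root of edgeR's F statistic. It is approximate, most of all for genes with few counts, because fold changes hold a prior count of 2 and F does not. By the chi-square of counts over genes, the third library of each clone stood further from the other 2 than these did from each other (256 and 305 against 39.0 per degree of freedom in Vcam1KO1, and 168 and 115 against 36.0 in Vcam1KO2 cells), beside 94.98 to 176 between the Vcam1Ctrl libraries. This measure on raw counts grows with library totals, so it does not rank the groups by their spread. Values without the third clone libraries are given for some of the members that they moved. The epithelial genes Krt8, Krt18, Krt19, Epcam, Cdh1 and Hnf4a lay between 17.4 and 5570.1 CPM in the Vcam1Ctrl libraries and at most at 1.61 CPM in any clone library. The biliary transcription factor Sox9 was at 127 ± 13.02 CPM in Vcam1Ctrl, 232 ± 128 CPM in Vcam1KO1 and 169.8 ± 58.4 CPM in Vcam1KO2 cells. Spp1, which encodes the secreted protein osteopontin, was at 2474 ± 576, 10576 ± 356 and 9640.0 ± 1890.2 CPM in the same order. In all, 10 of 14 tested biliary and epithelial markers were lower and 1 was higher in the pooled Vcam1KO libraries. The 16 genes of that list summed to 13826 to 15497 CPM in Vcam1Ctrl, 10638 to 11094 CPM in Vcam1KO1 and 7642 to 11090.0 CPM in Vcam1KO2 libraries. Of 12 tested fibroblast and stellate cell markers 9 were higher. Of all tested genes 21.7% were higher and 21.2% lower in the same comparison. The fibroblast list of 16 summed to 436 to 843 CPM in Vcam1Ctrl, 12589 to 16009 CPM in Vcam1KO1 and 6797 to 9134 CPM in Vcam1KO2 libraries. Its members Thy1, Lrat and Reln stayed under 0.3 CPM in every library. Defining endothelial genes (Pecam1, Cdh5, Kdr, Tek, Tie1, Erg, Sox17) reached at most 1.32 CPM, blood cell genes (Cd3e, Itgam, Adgre1, Spi1, Tyrobp) 0.164 CPM, and neuronal or glial genes (Rbfox3, Snap25, Elavl3, Elavl4, Stmn2, Sox10) 0.105 CPM in any library. The full endothelial list of 12 summed to 57.4 to 102.0 CPM in Vcam1Ctrl, 12.6 to 22.7 in Vcam1KO1 and 64.6 to 78.5 in Vcam1KO2 libraries. In the same order, the list of 10 blood cell genes summed to 7.77 to 21.0, 9.09 to 11.97 and 7.01 to 9.73 CPM. The list of 12 neuronal and Schwann cell genes summed to 14.4 to 22.5, 39.2 to 44.5 and 156.7 to 163.4 CPM. In bulk RNA, fewer cells that express a gene and less RNA per cell cannot be told apart, and the part of these marker shifts in the results below was not tested.

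Among the 60 members with enough counts to be tested, 36 (60%) differed between the pooled Vcam1KO and the Vcam1Ctrl libraries, against 43.0% of all 17672 tested genes. A gene was called at an adjusted p under 0.05 in edgeR's quasi-likelihood test, adjusted after Benjamini and Hochberg over all tested genes. Of the members, 19 were higher and 17 lower, and of all tested genes 21.7% were higher and 21.2% lower. The median log2 fold change was 0.17 over the tested members and 0.07 over all tested genes. In Vcam1KO1 cells 21 members were higher and 22 lower, together 71.7% of the tested members. Of all genes 59.9% were called in that clone, 29.9% higher and 30% lower. In Vcam1KO2 cells 24 members were higher and 21 lower, together 75%. Of all genes 51.4% were called there, 25.3% higher and 26.1% lower. The clone comparisons share the 3 Vcam1Ctrl libraries, and their medians over the members were 0.00 and 0.08, beside 0.02 and 0.00 over all genes. Libraries of the 2 conditions did not overlap for 34 members in the pooled comparison, where 44.2% of all genes did not overlap. That count was 48 in Vcam1KO1 cells against 66.0% of all genes, and 49 in Vcam1KO2 cells against 62.1%. The ligands split into 10 higher and 12 lower of 33 tested, and the receptors into 9 higher and 5 lower of 27 tested, in the pooled comparison. The other 8 members (Epha3, Epha6, Epha8, Ephb1, Sema5b, Ntn5, Unc5a and Robo4) did not pass the filter on low counts and reached at most 0.239 CPM in any library.

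**Figure D1:**
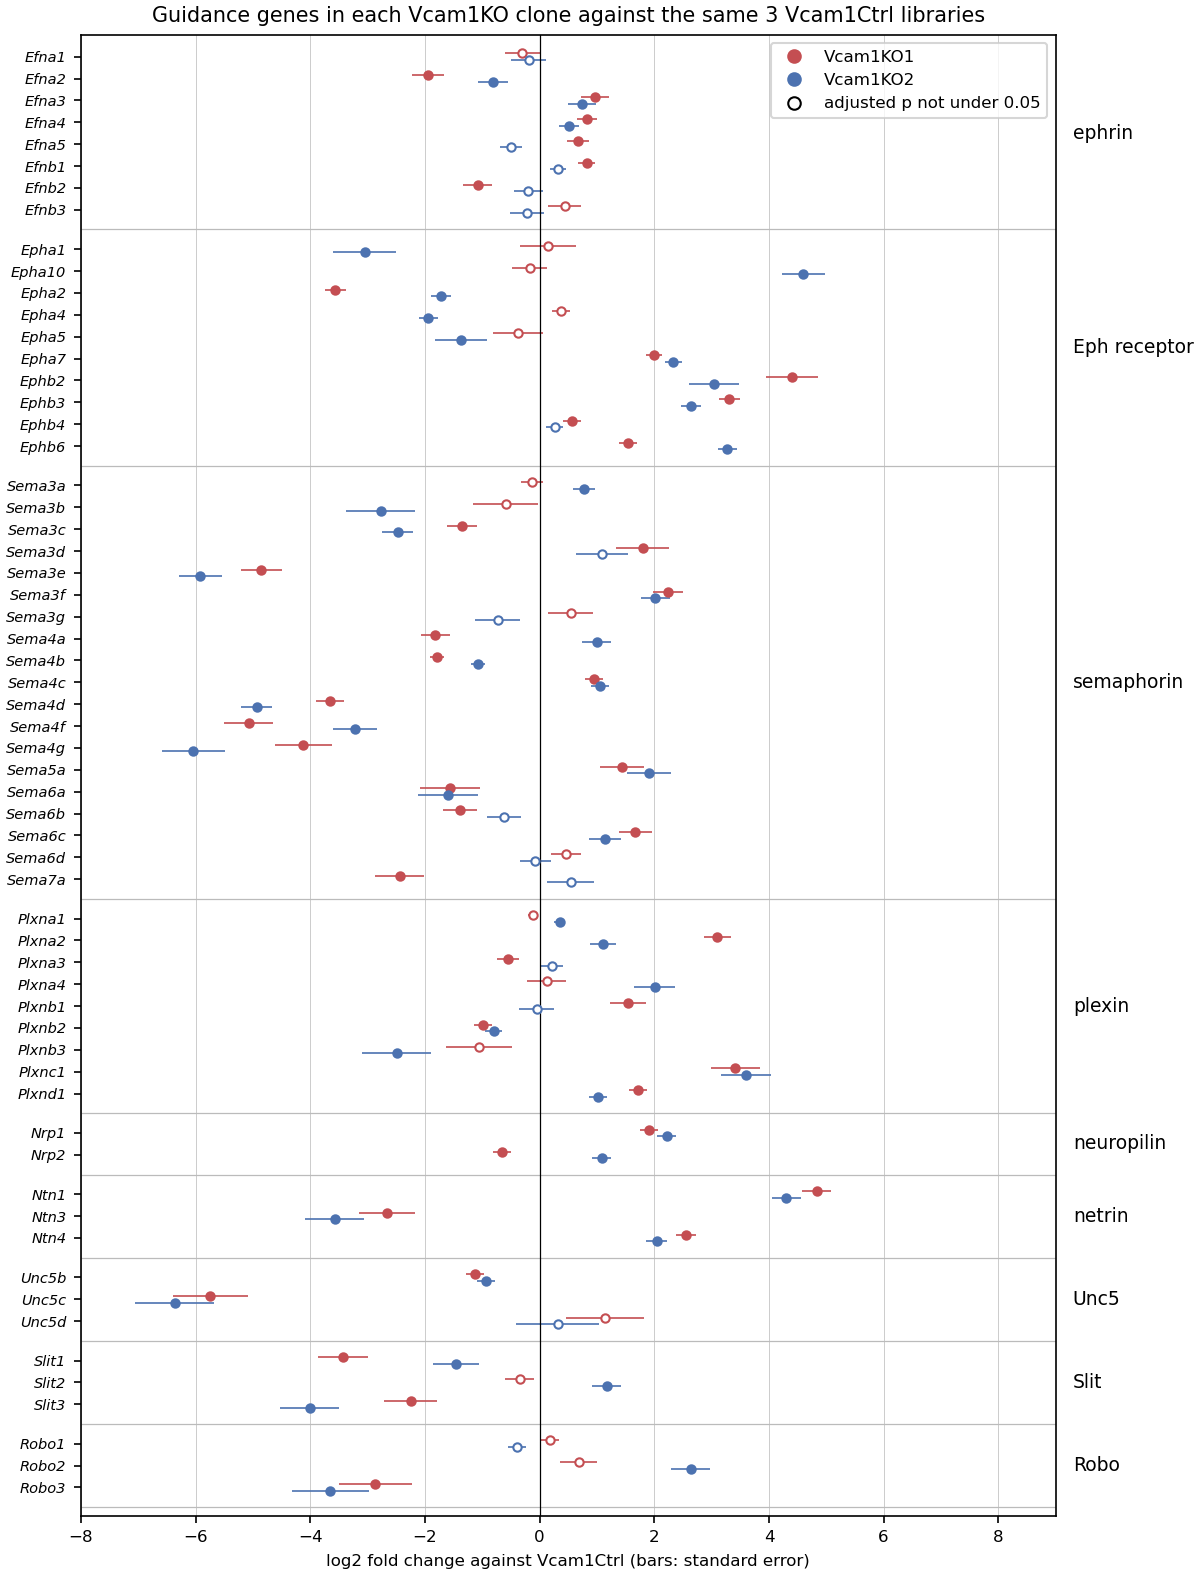
Log2 fold change (x axis) of the 60 tested guidance genes, grouped by family, in Vcam1KO1 (red) and Vcam1KO2 (blue) cells against the same 3 Vcam1Ctrl libraries. Bars are approximate standard errors, derived from the fold change and edgeR's F statistic, and open points did not pass the adjusted p of 0.05. The values run from -6.37 for Unc5c to 4.83 for Ntn1, with both directions in most families.

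In the pooled comparison 43.0% of all tested genes were called, a share that also stands beside the family counts below. Of the 10 tested Eph receptors, 4 were higher, 1 was lower and 5 did not pass there. The fall was that of Epha2, a receptor of A-class ephrins that is prominent in epithelia (GRCm38 chr4:141301240-141329384), which stood at 316, 315 and 331 CPM in Vcam1Ctrl cells. The levels were 21.9, 35.4 and 24.2 CPM in Vcam1KO1 and 101, 100.5 and 89.2 CPM in Vcam1KO2 cells. Each clone library lay below each Vcam1Ctrl library, and Vcam1KO1 libraries lay below Vcam1KO2 libraries. It was 11.8-fold lower in Vcam1KO1 cells (log2 fold change -3.56, standard error 0.19, edgeR adjusted p = 4.9e-07). In Vcam1KO2 cells it was 3.30-fold lower (log2 fold change -1.72, standard error 0.17, edgeR adjusted p = 3.2e-05). Ephb6, a receptor whose kinase domain is inactive (chr6:41605482-41620509), rose from 21.96, 18.6 and 27.6 CPM in Vcam1Ctrl cells to 64.9, 76.1 and 58.96 CPM in Vcam1KO1 and 219, 232 and 212 CPM in Vcam1KO2 cells. Its rise was thus 2.93-fold in the first clone and 9.69-fold in the second (adjusted p = 2.7e-05 and 6.0e-07). Ephb3, a receptor of B-class ephrins (chr16:21204755-21223305), was low in Vcam1Ctrl cells and rose in both clones, with 4.19, 3.43 and 4.48 CPM in Vcam1Ctrl cells. In the clones it read 45.3, 32.2 and 43.4 CPM in Vcam1KO1 and 23.03, 24.9 and 28.1 CPM in Vcam1KO2 cells. Its log2 fold change was 3.31 ± 0.18 in Vcam1KO1 cells and 2.64 ± 0.18 in Vcam1KO2 cells (adjusted p = 6.3e-07 and 2.5e-06).

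Epha7 rose in both clones, from 6.60, 6.33 and 7.89 CPM in Vcam1Ctrl cells to 30.1, 26.5 and 26.6 CPM in Vcam1KO1 and 38.5, 36.6 and 29.9 CPM in Vcam1KO2 cells. The log2 fold change was 1.99 ± 0.15 in Vcam1KO1 cells and 2.33 ± 0.15 in Vcam1KO2 cells (adjusted p = 3.7e-06 and 2.0e-06). Ephb2, another receptor of B-class ephrins, was low in Vcam1Ctrl cells, where its counts were 6, 8 and 11. It read 2.99, 2.15 and 3.18 CPM in Vcam1KO1 and 0.720, 0.962 and 1.49 CPM in Vcam1KO2 cells, and both rises passed the test (adjusted p = 3.2e-05 and 3.1e-04). Ephb4, known as the receptor of ephrin-B2, rose in Vcam1KO1 cells (log2 fold change 0.56, standard error 0.15, edgeR adjusted p = 0.0097). Its values were 64.4 ± 9.87 CPM in Vcam1Ctrl and 77.2 ± 6.39 CPM in Vcam1KO2 cells, with an adjusted p of 0.18. The receptors Epha4, Epha1 and Epha10 passed the threshold in Vcam1KO2 and not in Vcam1KO1 cells, and the clones were also set against each other for each of them. Epha4, which binds ligands of both classes, stood at 46.96, 38.02 and 48.9 CPM in Vcam1Ctrl, 52.6, 63.1 and 57.7 CPM in Vcam1KO1 and 13.9, 11.6 and 9.42 CPM in Vcam1KO2 cells. It fell in Vcam1KO2 cells with no overlap (log2 fold change -1.94, adjusted p = 1.2e-05), and the clones differed by 2.31 (adjusted p = 1.7e-05). Epha10, a receptor with an inactive kinase domain, had 5, 1 and 3 counts in Vcam1Ctrl and 3, 2 and 1 counts in Vcam1KO1 libraries, but 1.17, 1.30 and 1.82 CPM in Vcam1KO2 cells, and the clones differed (adjusted p = 2.9e-05). Epha1 ran the other way at very low levels, with counts of 56, 6 and 29 in Vcam1Ctrl, 30, 30 and 19 in Vcam1KO1 and 0, 2 and 1 in Vcam1KO2 libraries. The ratio of Vcam1Ctrl to Vcam1KO2 cells was 23.1 with a 95% counting interval of 7.64 to 114, which covers counting error only and not the spread between libraries. Epha5 also fell in Vcam1KO2 cells, below 0.11 CPM (log2 fold change -1.37, standard error 0.45, edgeR adjusted p = 0.030), a call that was lost without the first or the third Vcam1Ctrl or any 1 Vcam1KO2 library (adjusted p up to 0.11).

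Per kilobase of transcript, which allows levels of different genes to be compared, Epha2 led the Eph receptors in Vcam1Ctrl cells at 81.98 ± 2.32 CPM per kb, followed by Ephb4 at 14.8 ± 2.28 CPM per kb. In Vcam1KO1 cells Ephb4 led at 21.9 ± 3.46 CPM per kb, with Ephb6 next at 17.7 ± 2.31 CPM per kb. In Vcam1KO2 cells Ephb6 led at 58.7 ± 2.70 CPM per kb, ahead of Epha2 at 24.8 ± 1.75 CPM per kb. Epha2 thus made up 73.2% of the summed Eph receptor level per kb in Vcam1Ctrl, 10.1% in Vcam1KO1 and 21.7% in Vcam1KO2 cells, while Ephb6 made up 5.40%, 25.8% and 51.4%. Summed over all Eph receptors, the level was 464 ± 26.9 CPM in Vcam1Ctrl, 318 ± 4.60 CPM in Vcam1KO1 and 469.6 ± 14.5 CPM in Vcam1KO2 cells (SD, n = 3).

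Among the ephrins, Efna1, Efnb2 and Efnb1 were the most abundant per kb in Vcam1Ctrl and Vcam1KO2 cells. In Vcam1KO1 cells Efnb1 and Efna1 led, and Efnb2 at 9.75 ± 3.87 and Efna4 at 9.19 ± 1.19 CPM per kb did not differ beyond their spread. The sum over all 8 ephrins was 212 ± 23.1 CPM in Vcam1Ctrl, 198 ± 17.05 CPM in Vcam1KO1 and 202 ± 19.8 CPM in Vcam1KO2 cells. In the pooled comparison 3 ephrins rose, 1 fell and 4 did not pass the test. The rises were those of Efna3, Efna4 and Efnb1, at log2 fold changes of 0.85 (adjusted p = 0.022), 0.68 (adjusted p = 0.018) and 0.59 (adjusted p = 0.037). Each of these 3 pooled calls was lost when a single Vcam1Ctrl library was left out, with adjusted p values up to 0.10, 0.087 and 0.13. In Vcam1KO1 cells alone the 3 genes rose by 0.96, 0.83 and 0.82, with adjusted p values of 0.0072, 0.0026 and 0.0010 and of at most 0.034, 0.014 and 0.0089 with any 1 library left out. In Vcam1KO2 cells the log2 fold changes were 0.74 (adjusted p = 0.029), 0.51 (adjusted p = 0.034) and 0.32 (adjusted p = 0.097). The calls of Efna3 and Efna4 were lost there without any 1 Vcam1KO2 library and without the first or the second Vcam1Ctrl library. With a library left out, their edgeR adjusted p values reached 0.10 and 0.11. Both calls were also lost without the filter on low counts, and that of Efna4 was lost in 10 alternatives in all. Efna2 fell, from 2.79, 2.29 and 3.96 CPM in Vcam1Ctrl cells to 0.674, 0.668 and 0.958 CPM in Vcam1KO1 and 1.61, 1.68 and 1.82 CPM in Vcam1KO2 cells. Its pooled call was lost without the first or the third Vcam1Ctrl library (edgeR adjusted p up to 0.12). The fall in Vcam1KO1 cells (log2 fold change -1.94, edgeR adjusted p = 2.5e-04) passed in every alternative. That in Vcam1KO2 cells was -0.81 (edgeR adjusted p = 0.029). This call was lost without the first or the third Vcam1Ctrl or any 1 Vcam1KO2 library (up to 0.11). Efnb2, the ligand of Ephb4, stood at 98.8, 94.6 and 103 CPM in Vcam1Ctrl cells. It read 45.3, 65.97 and 28.9 CPM in Vcam1KO1 and 96.6, 92.1 and 70.7 CPM in Vcam1KO2 cells. It fell in Vcam1KO1 cells (log2 fold change -1.08, standard error 0.25, edgeR adjusted p = 0.0049), where no library reached those of Vcam1Ctrl, while its change in Vcam1KO2 cells was -0.19 ± 0.25 (adjusted p = 0.55). Efna5 rose to 22.1, 23.9 and 30.2 CPM in Vcam1KO1 cells, from 16.1, 15.7 and 16.2 CPM in Vcam1Ctrl cells, and read 13.5, 11.9 and 8.46 CPM in Vcam1KO2 cells. Its change in Vcam1KO2 cells was -0.50 with an adjusted p of 0.0505, and it passed in 7 alternatives, limma-voom and DESeq2 among them. The clones differed by 1.17 on the log2 scale (adjusted p = 0.0015). The levels of Efna1, the usual partner of Epha2, were 42.6 ± 13.98 CPM in Vcam1Ctrl, 34.6 ± 14.8 CPM in Vcam1KO1 and 37.3 ± 5.46 CPM in Vcam1KO2 cells. No change of this ligand passed the test (adjusted p = 0.43 and 0.63), though the first did without the third Vcam1KO1 library (adjusted p = 0.049). Efnb3 was low at 1.29 ± 0.394 CPM in Vcam1Ctrl, 1.77 ± 0.0305 CPM in Vcam1KO1 and 1.11 ± 0.250 CPM in Vcam1KO2 cells and passed no test against Vcam1Ctrl.

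**Figure D2:**
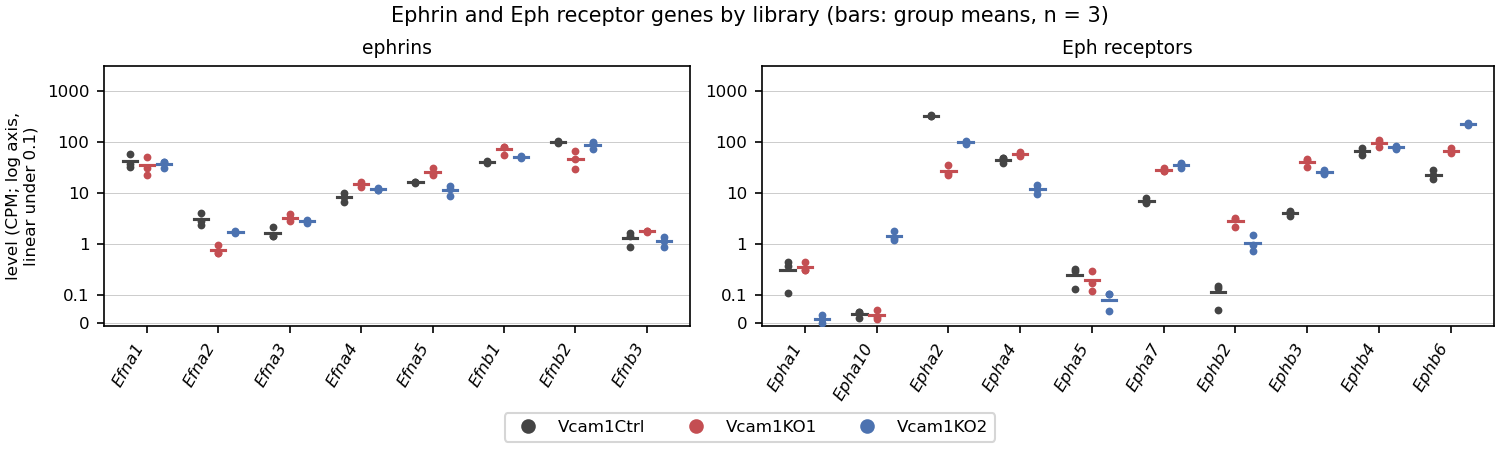
Level of each tested ephrin (left) and Eph receptor (right) in every library, in CPM on a log axis that is linear under 0.1, with Vcam1Ctrl in grey, Vcam1KO1 in red and Vcam1KO2 in blue and bars at the group means (n = 3). Epha2 falls from its 315 to 331 CPM, and Ephb6 and Ephb3 rise.

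By fitted log2 fold change in the pooled comparison, the largest decreases among the ligands were those of semaphorins, with 5 higher, 8 lower and 6 not past the test of 19 tested in the pooled comparison. Sema3e, a secreted semaphorin that binds Plxnd1 without a neuropilin (GRCm38 chr5:14025276-14256689), stood at 201, 191 and 177 CPM in Vcam1Ctrl cells. The levels were 6.56, 9.74 and 3.19 CPM in Vcam1KO1 and 3.10, 2.80 and 3.42 CPM in Vcam1KO2 cells. It fell 28.9-fold in Vcam1KO1 cells (log2 fold change -4.86, standard error 0.36, edgeR adjusted p = 3.6e-06). In Vcam1KO2 cells it fell 60.5-fold (log2 fold change -5.92, standard error 0.38, edgeR adjusted p = 2.0e-06). Sema4g, a membrane-bound semaphorin (chr19:44989101-45003397), varied more among the Vcam1Ctrl libraries but was far below them in both clones, with 278, 140.1 and 566 CPM in Vcam1Ctrl cells. In the clones it read 16.3, 15.6 and 24.7 CPM in Vcam1KO1 and 6.05, 5.67 and 3.19 CPM in Vcam1KO2 cells. Its log2 fold change was -4.12 ± 0.50 in Vcam1KO1 cells and -6.04 ± 0.55 in Vcam1KO2 cells (adjusted p = 9.2e-05 and 1.8e-05), and without the third Vcam1Ctrl library these were -3.48 and -5.39. Sema3c, a secreted class 3 semaphorin (chr5:17574281-17730268), read 271, 189.5 and 424 CPM in Vcam1Ctrl, 132, 120.2 and 94.4 CPM in Vcam1KO1 and 51.2, 50.5 and 57.2 CPM in Vcam1KO2 cells. This gave log2 fold changes of -1.35 ± 0.26 in Vcam1KO1 cells and -2.48 ± 0.27 in Vcam1KO2 cells (adjusted p = 0.0015 and 5.4e-05).

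Further class 4 semaphorins, which span the membrane, were also lower in both clones. Sema4b stood at 84.7, 87.2 and 92.5 CPM in Vcam1Ctrl, 28.5, 21.9 and 26.4 CPM in Vcam1KO1 and 38.8, 41.98 and 44.9 CPM in Vcam1KO2 cells, a narrow spread within each group (adjusted p = 2.2e-06 and 6.0e-05). Sema4d, the ligand of Plxnb1, fell from 6.34, 5.998 and 8.61 CPM in Vcam1Ctrl cells to 0.494, 0.584 and 0.511 CPM in Vcam1KO1 and 0.223, 0.226 and 0.163 CPM in Vcam1KO2 cells (adjusted p = 2.3e-06 and 8.7e-07). Sema4f had counts of 231, 95 and 94 in Vcam1Ctrl, 1, 3 and 1 in Vcam1KO1 and 11, 13 and 5 in Vcam1KO2 libraries. It was thus close to the limit of detection in the first clone and still detected in the second (adjusted p = 8.3e-06 and 1.1e-04). Sema6a fell with more spread, from 22.5, 14.6 and 32.5 CPM in Vcam1Ctrl cells to 4.91, 4.36 and 14.3 CPM in Vcam1KO1 and 10.2, 8.72 and 3.96 CPM in Vcam1KO2 cells. The Vcam1KO1 call was lost without the first or the third Vcam1Ctrl or the first or the second Vcam1KO1 library (adjusted p up to 0.086). The Vcam1KO2 call was lost without the first or the third Vcam1Ctrl or the second or the third Vcam1KO2 library (up to 0.093). Without the third Vcam1KO1 library the fall in that clone was -2.31 instead of -1.56 on the log2 scale. Sema6b fell in Vcam1KO1 cells (log2 fold change -1.38, standard error 0.30, edgeR adjusted p = 0.0029). In Vcam1KO2 cells its change was -0.62 ± 0.29 (adjusted p = 0.10, or 0.045 without the third Vcam1KO2 library), and its pooled call was lost without any 1 Vcam1Ctrl library or the first or the second library of either clone (adjusted p up to 0.18).

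The rises among semaphorins were led by Sema3f, a secreted ligand that prefers Nrp2 (GRCm38 chr9:107681500-107710475), which went from 53.4, 37.7 and 78.9 CPM in Vcam1Ctrl cells to 240.1, 253 and 311 CPM in Vcam1KO1 and 253, 251 and 186 CPM in Vcam1KO2 cells. The rise was 4.73-fold in Vcam1KO1 cells (log2 fold change 2.24, standard error 0.26, edgeR adjusted p = 6.6e-05). In Vcam1KO2 cells it rose 4.06-fold (log2 fold change 2.02, standard error 0.26, edgeR adjusted p = 1.5e-04). Sema5a, a transmembrane semaphorin with thrombospondin repeats, read 31.3, 23.5 and 45.8 CPM in Vcam1Ctrl, 56.4, 68.9 and 148 CPM in Vcam1KO1 and 152, 137 and 90.3 CPM in Vcam1KO2 cells and rose in both (adjusted p = 0.0093 and 0.0026). Without the third Vcam1KO1 library its rise in that clone was 0.90 instead of 1.44 on the log2 scale. The clones then differed by -1.01 (edgeR adjusted p = 0.029), a difference that did not pass with all libraries (0.35). Sema6c rose from 1.94 ± 0.626 CPM to 6.28 ± 1.07 and 4.32 ± 0.822 CPM (adjusted p = 7.1e-04 and 0.0075). Sema4c, a ligand of Plxnb2, rose from 19.6 ± 1.78 CPM to 37.8 ± 7.81 and 40.8 ± 3.14 CPM (adjusted p = 6.1e-04 and 3.9e-04). Sema3d stayed under 1 CPM in every library and rose in Vcam1KO1 cells (log2 fold change 1.80, adjusted p = 0.0076). In Vcam1KO2 cells its edgeR adjusted p was 0.074, or 0.049 without the third library of that clone. Its pooled call was lost without any 1 Vcam1Ctrl library, the first or the second Vcam1KO1 or the first Vcam1KO2 library (adjusted p up to 0.097).

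The clones parted for several semaphorins. Sema4a stood at 42.6, 39.7 and 59.7 CPM in Vcam1Ctrl, 17.5, 14.4 and 8.44 CPM in Vcam1KO1 and 93.1, 94.6 and 95.3 CPM in Vcam1KO2 cells, so that it lay below Vcam1Ctrl in every Vcam1KO1 library and above it in every Vcam1KO2 library. Both changes passed the test, at -1.82 (adjusted p = 2.0e-04) and 0.99 (adjusted p = 0.0074) on the log2 scale, and the clones differed by -2.81 (adjusted p = 6.8e-05). Sema7a, a lipid-anchored semaphorin that binds Plxnc1 and beta1 integrins, fell from 24.1, 50.7 and 21.7 CPM in Vcam1Ctrl cells to 3.35, 5.64 and 8.68 CPM in Vcam1KO1 cells. It read 34.01, 42.9 and 63.3 CPM in Vcam1KO2 cells, a difference between the clones of -2.98 (adjusted p = 8.8e-04). Sema3b read 24.4, 23.4 and 20.7 CPM in Vcam1Ctrl, 8.40, 8.49 and 28.6 CPM in Vcam1KO1 and 4.88, 3.97 and 1.12 CPM in Vcam1KO2 cells, where the third Vcam1KO1 library stood above every Vcam1Ctrl library. It fell in Vcam1KO2 cells (log2 fold change -2.77, standard error 0.60, edgeR adjusted p = 0.0038), and in Vcam1KO1 cells its adjusted p was 0.39, or 0.028 without the third library. Sema3a, the ligand typical of Nrp1, rose in Vcam1KO2 cells to 36.4 ± 1.11 CPM from 21.2 ± 5.10 CPM (adjusted p = 0.0073) and read 19.4 ± 3.07 CPM in Vcam1KO1 cells (adjusted p = 0.57). Sema3g, under 1 CPM throughout, and Sema6d, at 21.9 ± 6.31 CPM in Vcam1Ctrl, 30.3 ± 10.03 CPM in Vcam1KO1 and 20.9 ± 2.13 CPM in Vcam1KO2 cells, passed no test against Vcam1Ctrl.

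Per kb, Sema4g and Sema3c were the leading semaphorins of Vcam1Ctrl cells at 72.1 ± 47.7 and 53.7 ± 21.7 CPM per kb, 2 levels that do not differ beyond their spread and trade places when length is taken over all exons, and Sema3e was next at 27.6 ± 1.74 CPM per kb. Sema3f led in both clones, at 78.95 ± 11.2 CPM per kb in Vcam1KO1 and 67.7 ± 11.2 CPM per kb in Vcam1KO2 cells, against 16.7 ± 6.13 CPM per kb in Vcam1Ctrl cells. Its share of the summed semaphorin level per kb was 6.71% in Vcam1Ctrl, 51.7% in Vcam1KO1 and 39.7% in Vcam1KO2 cells. The second place differed between the clones and was held by Sema3c at 21.02 ± 3.46 CPM per kb in Vcam1KO1 and by Sema4a at 29.4 ± 0.354 CPM per kb in Vcam1KO2 cells. The family's sum was 1129, 883 and 1603 CPM in Vcam1Ctrl, 610.3, 612 and 785 CPM in Vcam1KO1 and 761, 751 and 660.5 CPM in Vcam1KO2 libraries, with every clone library below every Vcam1Ctrl library.

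**Figure D3:**
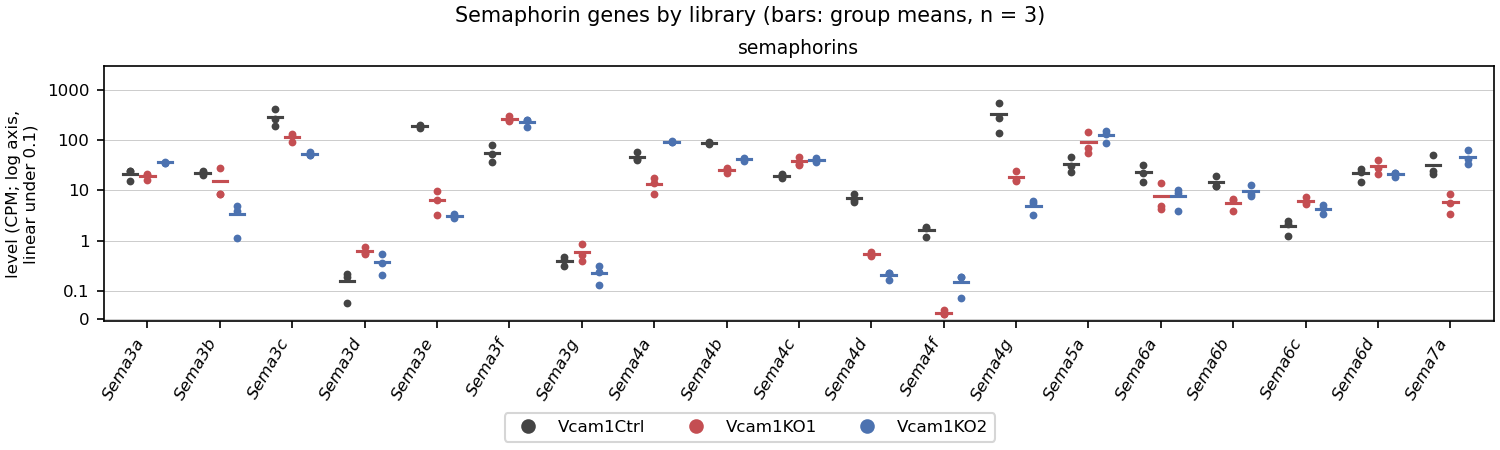
Level of each of the 19 tested semaphorins in every library, in CPM on a log axis that is linear under 0.1, with Vcam1Ctrl in grey, Vcam1KO1 in red and Vcam1KO2 in blue and bars at the group means (n = 3). Sema3e, Sema4g, Sema4d and Sema4f drop in both clones, Sema3f rises in both, and Sema4a and Sema7a separate the clones.

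The letters upstream of 4 of these genes are shown because Sema3e, Sema4g and Sema4f were among the members that fell furthest and Ephb2 was the 1 gene with a matching motif among those that rose at least 2-fold in both clones. Each run is the 250 bases before the RefSeq start on GRCm38.p6, on the strand of the gene, which is plus for Sema3e (chr5:14025026-14025275) and Sema4g (chr19:44989094-44989343) and minus for Sema4f (chr6:82939770-82940019) and Ephb2 (chr4:136836013-136836262). Capitals mark CAGGTG or its reverse complement CACCTG, the E-box of the form that zinc finger repressors of the Snail and Zeb families are known to bind.
Sema3e: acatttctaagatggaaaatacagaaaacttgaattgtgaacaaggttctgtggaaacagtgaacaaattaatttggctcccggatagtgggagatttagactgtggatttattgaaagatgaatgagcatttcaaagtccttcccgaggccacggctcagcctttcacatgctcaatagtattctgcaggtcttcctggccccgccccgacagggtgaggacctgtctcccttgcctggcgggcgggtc
Sema4g: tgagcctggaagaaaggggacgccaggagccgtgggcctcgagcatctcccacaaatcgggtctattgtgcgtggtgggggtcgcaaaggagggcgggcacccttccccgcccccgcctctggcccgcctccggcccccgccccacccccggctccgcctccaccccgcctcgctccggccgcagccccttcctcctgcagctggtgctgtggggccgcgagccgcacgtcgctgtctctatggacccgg
Sema4f: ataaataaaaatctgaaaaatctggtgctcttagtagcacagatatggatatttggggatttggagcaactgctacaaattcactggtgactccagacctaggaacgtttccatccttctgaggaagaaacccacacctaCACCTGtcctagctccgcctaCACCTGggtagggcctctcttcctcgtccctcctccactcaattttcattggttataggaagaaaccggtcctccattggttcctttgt
Ephb2: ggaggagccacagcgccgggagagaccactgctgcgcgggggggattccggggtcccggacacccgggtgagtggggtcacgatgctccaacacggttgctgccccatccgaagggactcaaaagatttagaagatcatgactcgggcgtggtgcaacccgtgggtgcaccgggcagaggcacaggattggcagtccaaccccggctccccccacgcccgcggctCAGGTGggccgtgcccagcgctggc
Sema4f holds the motif at 110 and 89 bases before its start and Ephb2 at 25 bases, and Sema3e and Sema4g hold none in this window. By the smaller of the 2 clone changes, Unc5c and Sema4d fell further than Sema4f (by 5.74 and 3.65 against 3.21 on the log2 scale). Unc5c and Sema4d are not shown and hold no motif in any of their windows, so the genes shown do not stand for the members that fell. Over windows of 250 bases before and 50 after the start, searched on both strands, 10 of 59 members with an entry (16.9%) held the motif, against 21.2% of the tested genes with an entry and 22.6% of all 27025 genes in the table. It was held by 2 of 10 members that fell and 1 of 11 that rose at least 2-fold in both clones. These are matches of letters and no binding was measured.

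Of the plexins, which are the signalling receptors of semaphorins, 3 rose, 1 fell and 5 did not pass the test in the pooled comparison. Plxnd1, the receptor of Sema3e (GRCm38 chr6:115954811-115995005), rose while its ligand fell, with 176, 127 and 127 CPM in Vcam1Ctrl cells. It read 476, 415 and 520.0 CPM in Vcam1KO1 and 299.6, 296 and 275 CPM in Vcam1KO2 cells. The rise was 3.28-fold in Vcam1KO1 cells (log2 fold change 1.71, standard error 0.16, edgeR adjusted p = 1.4e-05). In Vcam1KO2 cells it rose 2.03-fold (log2 fold change 1.02, standard error 0.15, edgeR adjusted p = 4.2e-04). Plxna2, a receptor of class 6 semaphorins, rose further in the first clone than in the second, with 19.8, 17.02 and 30.2 CPM in Vcam1Ctrl cells. The levels were 159, 176 and 241 CPM in Vcam1KO1 and 46.8, 44.7 and 52.7 CPM in Vcam1KO2 cells. The clones differed by 2.0 on the log2 scale (adjusted p = 2.3e-04), and its pooled call was lost without the first or the second Vcam1Ctrl library (adjusted p up to 0.065). Plxnc1, the receptor of Sema7a, was low in Vcam1Ctrl cells, with counts of 14, 4 and 4. It read 0.824, 1.09 and 1.45 CPM in Vcam1KO1 and 1.52, 1.58 and 0.725 CPM in Vcam1KO2 cells (adjusted p = 1.0e-04 and 9.7e-05).

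Plxnb2 was the most abundant plexin per kb in every group, at 199.7 ± 40.9 CPM per kb in Vcam1Ctrl, 101 ± 3.91 in Vcam1KO1 and 114 ± 6.76 in Vcam1KO2 cells. Its level fell from 1293, 1034 and 1565 CPM in Vcam1Ctrl cells to 649, 685 and 636 CPM in Vcam1KO1 and 766, 772 and 693 CPM in Vcam1KO2 cells (adjusted p = 4.8e-04 and 0.0019). Plxnb1, the receptor of Sema4d, rose in Vcam1KO1 cells (log2 fold change 1.55, standard error 0.31, edgeR adjusted p = 0.0019). Its levels were 66.9 ± 18.8 CPM in Vcam1Ctrl, 195 ± 77.04 CPM in Vcam1KO1 and 64.6 ± 15.6 CPM in Vcam1KO2 cells. Plxnb3 fell in Vcam1KO2 cells from 1.54 ± 0.619 to 0.253 ± 0.0634 CPM (adjusted p = 0.0068). It read 0.434, 0.282 and 1.48 CPM in Vcam1KO1 cells and did not pass there (adjusted p = 0.14). Without the third Vcam1KO1 library that adjusted p was 0.0034. Plxna1 varied little within the groups, at 255, 262 and 238 CPM in Vcam1Ctrl, 234, 236 and 229 CPM in Vcam1KO1 and 319, 330.3 and 316 CPM in Vcam1KO2 cells. Its rise in Vcam1KO2 cells of 0.35 on the log2 scale passed the test (adjusted p = 0.011), though not without the filter on low counts. Plxna4 rose to 5.65, 6.09 and 5.96 CPM in Vcam1KO2 cells from 1.24, 0.904 and 2.18 CPM in Vcam1Ctrl cells (adjusted p = 0.0011). Plxna3 fell in Vcam1KO1 cells by 0.55 on the log2 scale (adjusted p = 0.034), a call that was lost without the first or the third Vcam1Ctrl or the first or the second Vcam1KO1 library.

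The neuropilins are co-receptors of class 3 semaphorins and of vascular endothelial growth factors. Nrp1 (GRCm38 chr8:128358604-128503363) rose in both clones, with 16.05, 12.9 and 20.8 CPM in Vcam1Ctrl, 59.8, 63.1 and 63.8 CPM in Vcam1KO1 and 80.1, 77.4 and 74.03 CPM in Vcam1KO2 cells. Its log2 fold changes were 1.91 ± 0.16 in Vcam1KO1 cells and 2.22 ± 0.16 in Vcam1KO2 cells (adjusted p = 8.1e-06 and 4.5e-06). Nrp2, which receives Sema3f, moved in opposite directions, with 131, 119 and 89.05 CPM in Vcam1Ctrl cells. In the clones it read 66.2, 71.0 and 77.2 CPM in Vcam1KO1 and 257, 256 and 204 CPM in Vcam1KO2 cells. Every Vcam1KO1 library lay below and every Vcam1KO2 library above the Vcam1Ctrl libraries. Its log2 fold change was -0.66 (adjusted p = 0.0054) in Vcam1KO1 and 1.08 (adjusted p = 3.8e-04) in Vcam1KO2 cells, and the clones differed by -1.74 (adjusted p = 7.0e-05). Nrp2 and Sema4a were the 2 members with called changes of opposite sign in the clones, and Efna5 was just short of being a further one. Per kb, Nrp2 exceeded Nrp1 in Vcam1Ctrl (16.8 ± 3.20 against 4.61 ± 1.11 CPM per kb) and in Vcam1KO2 cells (35.6 ± 4.50 against 21.5 ± 0.840), and Nrp1 exceeded Nrp2 in Vcam1KO1 cells (17.3 ± 0.592 against 10.6 ± 0.815). The order in Vcam1KO1 cells rests on the length used. With length taken over all exons, Nrp1 and Nrp2 were close there, at 6.36 and 6.03 CPM per kb.

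The netrins held the largest called rise of the members in the pooled and the Vcam1KO1 comparisons. Ntn1, the founding secreted netrin (GRCm38 chr11:68209364-68400823), stood at 8.88, 5.37 and 10.7 CPM in Vcam1Ctrl, 199, 246 and 269 CPM in Vcam1KO1 and 169, 172 and 154 CPM in Vcam1KO2 cells, with a gap between the groups far wider than the spread within them. It was 28.5-fold higher in Vcam1KO1 cells (log2 fold change 4.83, standard error 0.26, edgeR adjusted p = 5.6e-07). In Vcam1KO2 cells it was 19.7-fold higher (log2 fold change 4.30, standard error 0.25, edgeR adjusted p = 1.3e-06). Ntn4, a netrin that binds laminin in basement membranes (chr10:93640681-93747207), rose from 10.05, 10.8 and 14.5 CPM in Vcam1Ctrl cells to 62.7, 69.8 and 75.3 CPM in Vcam1KO1 and 53.3, 53.2 and 39.4 CPM in Vcam1KO2 cells (adjusted p = 2.9e-06 and 1.4e-05). Ntn3 fell from 1.16, 0.923 and 1.63 CPM in Vcam1Ctrl cells to 0.255, 0.115 and 0.160 CPM in Vcam1KO1 and 0.0171, 0.0848 and 0.133 CPM in Vcam1KO2 cells (adjusted p = 0.0011 and 3.2e-04). Summed over the 4 netrins, the level was 21.4 ± 5.04 CPM in Vcam1Ctrl, 308 ± 41.9 CPM in Vcam1KO1 and 214 ± 17.5 CPM in Vcam1KO2 cells. Per kb, Ntn4 led in Vcam1Ctrl cells (3.23 ± 0.660 against 1.41 ± 0.459 CPM per kb for Ntn1), and Ntn1 led in Vcam1KO1 (40.5 ± 6.07 against 19.0 ± 1.73) and Vcam1KO2 cells (28.05 ± 1.62 against 13.3 ± 2.19).

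No netrin receptor passed the test for a rise beside Ntn1. Unc5b, by far the most abundant Unc5 receptor (GRCm38 chr10:60762593-60831581), fell from 394, 453 and 422 CPM in Vcam1Ctrl cells to 187, 205 and 193 CPM in Vcam1KO1 and 249, 247 and 169 CPM in Vcam1KO2 cells. Its log2 fold change was -1.12 ± 0.16 in Vcam1KO1 cells and -0.93 ± 0.16 in Vcam1KO2 cells (adjusted p = 2.2e-04 and 8.1e-04). The difference between the clones did not pass with all libraries (edgeR adjusted p = 0.37) and passed without the third Vcam1KO2 library (0.034). Unc5b made up 99.2% of the summed Unc5 level per kb in Vcam1Ctrl and 99.9% in Vcam1KO1 cells. Unc5c had counts of 961, 320 and 224 in Vcam1Ctrl, 6, 6 and 5 in Vcam1KO1 and 0, 1 and 7 in Vcam1KO2 libraries, which corresponds to 7.66, 5.91 and 2.83 CPM in Vcam1Ctrl cells and at most 0.104 CPM in any clone library. Its fall passed the test in both clones (adjusted p = 5.9e-05 and 5.2e-05), and in Vcam1KO2 cells the fitted log2 fold change was -6.37, or -7.37 without the third library of that clone. Unc5d stayed under 0.25 CPM in every library and passed no test with all libraries, and in Vcam1KO1 cells it passed without the first Vcam1Ctrl library (adjusted p = 0.036). Dcc, the attractive netrin receptor, which is no member by the rule, read 1.78, 1.57 and 0.873 CPM in Vcam1Ctrl cells and at most 0.0798 CPM in any clone library (adjusted p = 1.9e-04 and 1.2e-04). Its relative Neo1, named here after its values were seen, stood at 231 ± 52.0 CPM in Vcam1Ctrl, 325 ± 50.9 CPM in Vcam1KO1 and 323 ± 73.8 CPM in Vcam1KO2 cells (log2 fold change 0.50 and 0.49, adjusted p = 0.077 and 0.091).

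Of the Slits and Robo receptors, Slit1, Slit3 and Robo3 fell and Robo2 rose in the pooled comparison. Slit1 fell from 4.25, 2.44 and 3.34 CPM in Vcam1Ctrl cells to 0.389, 0.355 and 0.112 CPM in Vcam1KO1 and 1.10, 1.004 and 1.51 CPM in Vcam1KO2 cells. It fell further in the first clone than in the second (difference -1.97 on the log2 scale, adjusted p = 0.0054). Its call in Vcam1KO2 cells was lost without the first Vcam1Ctrl or the first or the second Vcam1KO2 library, with adjusted p values up to 0.054, and that in the pooled comparison without the first or the third Vcam1Ctrl library (up to 0.083). Slit2, the leading Slit per kb in every group (GRCm38 chr5:47983138-48307733), stood at 29.1, 25.97 and 40.5 CPM in Vcam1Ctrl cells. It read 22.4, 33.1 and 19.7 CPM in Vcam1KO1 and 83.1, 79.8 and 53.04 CPM in Vcam1KO2 cells. It rose in Vcam1KO2 cells (log2 fold change 1.17, standard error 0.25, edgeR adjusted p = 0.0036) and had an adjusted p of 0.26 in Vcam1KO1 cells, where its libraries overlapped those of Vcam1Ctrl, and the clones differed by -1.52 (adjusted p = 0.0017). Slit3 was under 1 CPM throughout, with counts of 59, 15 and 54 in Vcam1Ctrl, 8, 7 and 3 in Vcam1KO1 and 0, 1 and 0 in Vcam1KO2 libraries. The ratio of Vcam1Ctrl to Vcam1KO2 cells was 97.3, with a 95% counting interval of 17.2 to 3873 that covers counting error only.

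Among the receptors, Robo1 led per kb in every group and read 65.6, 51.3 and 64.9 CPM in Vcam1Ctrl, 61.02, 61.5 and 83.9 CPM in Vcam1KO1 and 50.7, 47.3 and 40.7 CPM in Vcam1KO2 cells, with adjusted p values of 0.35 and 0.067 against Vcam1Ctrl. The second was 0.022 without the second Vcam1Ctrl and 0.027 without the third Vcam1KO1 library. Robo2 (GRCm38 chr16:73891839-74411825) rose to 46.1, 41.3 and 39.7 CPM in Vcam1KO2 cells, from 9.29, 7.95 and 3.07 CPM in Vcam1Ctrl cells. It read 11.4, 10.4 and 10.9 CPM in Vcam1KO1 cells. The rise in Vcam1KO2 cells was 6.23-fold (log2 fold change 2.64, standard error 0.34, edgeR adjusted p = 1.6e-04), and the clones differed by -1.96 (adjusted p = 0.0018). The pooled call of Robo2 was lost without any 1 Vcam1Ctrl or Vcam1KO2 library and with limma-voom (adjusted p up to 0.13 among the former). Robo3, a receptor best known from commissural axons, fell from 1.35, 0.627 and 1.23 CPM in Vcam1Ctrl cells to 0.255, 0.104 and 0.0160 CPM in Vcam1KO1 and 0.0685, 0.0283 and 0.0887 CPM in Vcam1KO2 cells (adjusted p = 0.0033 and 0.0014). Without the first Vcam1KO1 library its fall in that clone was -3.64 instead of -2.86 on the log2 scale.

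**Figure D4:**
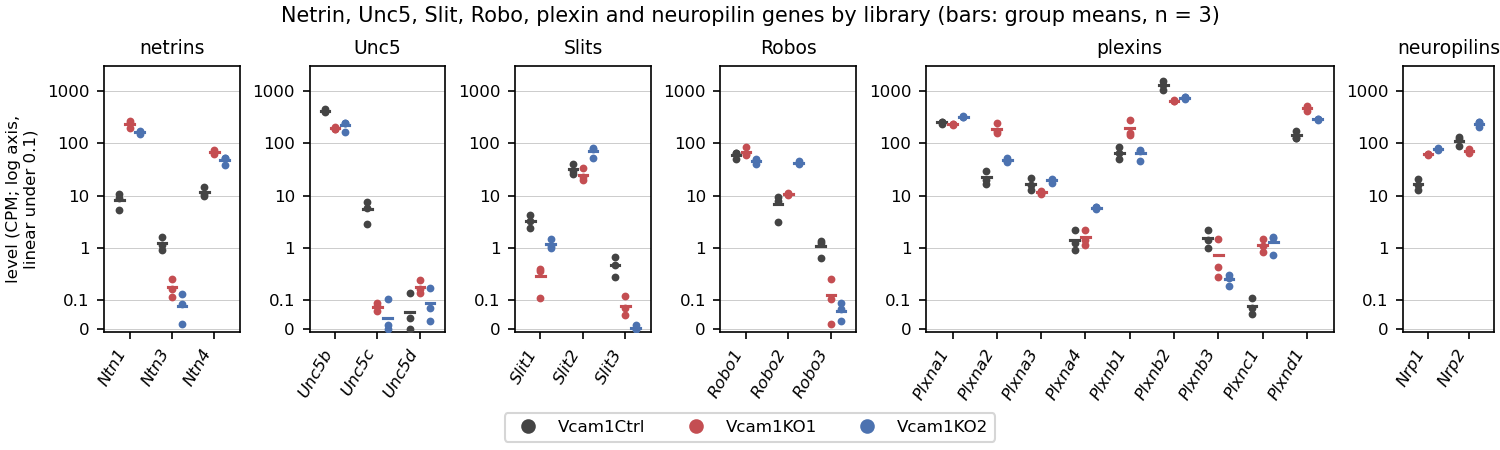
Level of each tested netrin, Unc5, Slit, Robo, plexin and neuropilin gene in every library, in CPM on a log axis that is linear under 0.1, with Vcam1Ctrl in grey, Vcam1KO1 in red and Vcam1KO2 in blue and bars at the group means (n = 3). Ntn1 and Ntn4 rise and Unc5c falls to near 0 in both clones, and Slit2, Robo2 and Nrp2 are highest in Vcam1KO2 cells.

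**Figure D5:**
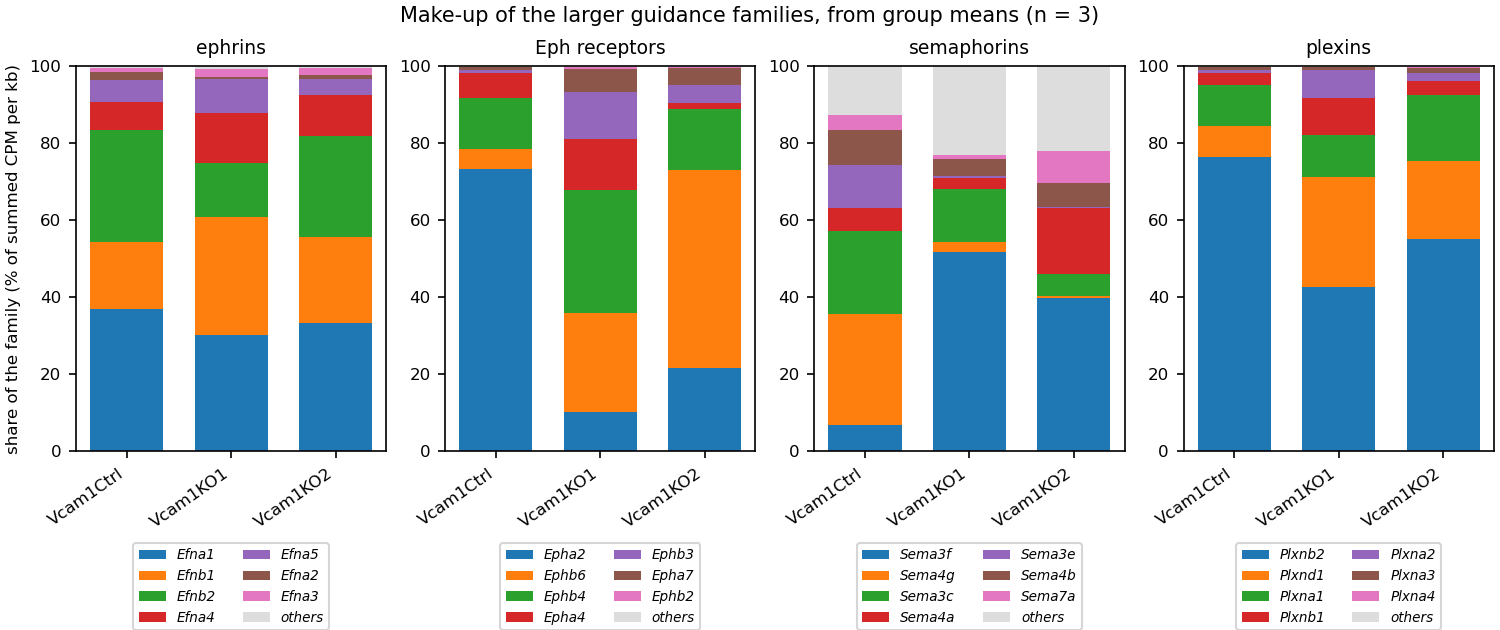
Share (%) of each family's summed level per kb (CPM per kb of the longest coding transcript, group means of n = 3) taken by its 7 leading genes, with the rest in light grey. Epha2 gives way to Ephb4 and Ephb6, Sema3f takes the largest semaphorin share in both clones, and Plxnb2 stays first among the plexins.

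Set directly against each other, the clones differed in 35 of the 60 tested members (58.3%), against 38.7% of all tested genes. Of these members 18 were higher and 17 lower in Vcam1KO1 cells, beside 20.2% and 18.5% of all tested genes. Their libraries did not overlap for 42 members, where 54.9% of all genes did not overlap. The median difference was 0.31 over the tested members and 0.03 over all tested genes on the log2 scale. Members higher in Vcam1KO1 cells by at least 2-fold included Epha4, Plxna2, Plxnb1 and Efna5, and those higher in Vcam1KO2 cells included Sema4a, Sema7a, Robo2, Nrp2, Slit2 and Ephb6. Members named for a fall in both clones also differed between them, with Sema4g and Sema4d lower in Vcam1KO2 cells (differences of 1.92 and 1.28, adjusted p = 0.010 and 0.0034). Epha2 and Sema4f were lower in Vcam1KO1 cells (differences of -1.84 and -1.86, adjusted p = 7.4e-05 and 0.0050). For Ntn1, Nrp1, Sema3f, Epha7 and Plxnb2 the difference between clones did not pass the test, with values of 0.53, -0.31, 0.22, -0.33 and -0.18 and standard errors of 0.22, 0.15, 0.25, 0.14 and 0.15. With 1 library left out, that difference passed for Ntn1 without the second Vcam1Ctrl library (adjusted p = 0.019), for Nrp1 without the second or the third Vcam1Ctrl library (0.034 and 0.046) and for Epha7 without the third Vcam1KO2 library (0.043). The difference also passed for Ntn1 and Nrp1 in a fit on only the 6 clone libraries, and for Ntn1 with limma-voom.

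Other genes of the same pathways were also called in both directions. Of 22 tested co-receptors and further guidance ligands, 8 were higher and 7 lower in the pooled comparison, and of 52 tested signal transducers 16 were higher and 10 lower, beside 43.0% of all tested genes called in either direction. Per clone, 9 co-receptors and ligands were higher and 9 lower in Vcam1KO1 cells, and 9 were higher and 8 lower in Vcam1KO2 cells. The transducers split into 21 higher and 15 lower in Vcam1KO1 and 21 higher and 14 lower in Vcam1KO2 cells, where 59.9% and 51.4% of all tested genes were called. Rgma, a repulsive ligand of Neo1, rose from 5.82, 4.37 and 2.64 CPM in Vcam1Ctrl cells to 75.9, 72.4 and 89.7 CPM in Vcam1KO1 and 51.9, 54.2 and 43.2 CPM in Vcam1KO2 cells (adjusted p = 1.7e-06 and 5.4e-06). The adhesion molecule Nrcam and the netrin relative Ntng1, which encodes netrin-G1, also rose in both clones, with log2 fold changes of 1.95 and 4.24 and of 2.43 and 2.74. Besides Dcc, the largest falls in this list were those of Flrt2, a membrane ligand of Unc5 receptors, at -5.80 and -2.37, and of Erbb2, a receptor tyrosine kinase that associates with plexin B, at -1.44 and -1.23. Among the transducers, Arhgef16 fell from 43.3, 37.1 and 49.6 CPM in Vcam1Ctrl cells to at most 0.0417 CPM in any clone library (adjusted p = 8.7e-09 and 1.2e-08). Arhgef16 is a guanine nucleotide exchange factor for small GTPases. Arhgef19, another one, rose from 4.16, 2.86 and 2.91 CPM in Vcam1Ctrl cells to 39.1, 33.9 and 40.05 CPM in Vcam1KO1 and 40.4, 40.8 and 47.1 CPM in Vcam1KO2 cells (adjusted p = 4.4e-07 and 4.9e-07). Grip1, a scaffold that binds B-class ephrins, fell to at most 0.0449 CPM in the clones from 5.55, 4.65 and 5.59 CPM in Vcam1Ctrl cells, and Limk2, a kinase of cofilin, fell by 1.58 and 1.92 on the log2 scale. Srgap1, a GTPase activator downstream of Robo receptors, and Enah, an actin regulator that acts in Robo and netrin signalling, rose by 2.12 and 2.32 on the log2 scale in Vcam1KO1 and by 2.31 and 1.74 in Vcam1KO2 cells.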

How the data were processed

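RNA of Vcam1Ctrl, Vcam1KO1 and Vcam1KO2 PPTR cells was sequenced by the authors as stranded, paired-end mRNA libraries, 3 per group. The authors pseudoaligned reads with kallisto (0.46.1 in the submitters' processing notes, which name mm10) and deposited estimated counts per gene symbol, without normalization. All were whole numbers, and 0 value columns were left out. Library totals ran from 53415907 to 125223073 counts, so the spread between 3 libraries, not counting, limits precision for all but the lowest genes.

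Counts were TMM-scaled and filtered with filterByExpr, which left 17672 genes, and tested with edgeR 4.0.16 (R 4.3.3) by its quasi-likelihood test with Benjamini-Hochberg adjustment over all tested genes, at 0.05. The pooled comparison set 6 Vcam1KO against 3 Vcam1Ctrl libraries, and clone contrasts came from 1 fit with 3 groups and all 9 libraries. Fold changes used a prior count of 2. Genes at 3 counts or fewer were taken as near the limit of detection. Levels per kb used the longest coding transcript in GENCODE vM21, matched by symbol, and promoters came from RefSeq on GRCm38.p6, where Ntn1 had no entry. The authors counted reads against a later GENCODE release of the same build.

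The members and gene lists were chosen with earlier results of these data known. Members were named when they passed the threshold with at least a 2-fold change in the same direction in both clones, or between the clones, with a mean of at least 1 CPM in a group, and the remaining members are given with their values. Pathway genes were the 3 largest changes in each direction in both clones. Alternatives were limma-voom (limma 3.58.1), DESeq2 1.42.0, other scaling and filters, a test against a 2-fold change and leaving out each library.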

Additional observations from a re-analysis of the deposited data

Results flagged for a closer look

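The change against Vcam1Ctrl differed between the clones for 35 members, tested as the contrast of Vcam1KO1 against Vcam1KO2 in edgeR's quasi-likelihood test (adjusted p under 0.05). The log2 difference of Vcam1KO1 from Vcam1KO2 cells was positive for 18 of them, namely Epha1 3.20, Epha4 2.31, Sema3b 2.18, Plxna2 2.0, Sema4g 1.92, Slit3 1.76, Plxnb1 1.60, Ephb2 1.36, Sema4d 1.28, Sema3g 1.27, Efna5 1.17, Sema3c 1.12, Sema3e 1.06, Plxnd1 0.69, Ephb3 0.67, Robo1 0.57, Ntn4 0.51 and Efnb1 0.50. It was negative for the other 17, namely Epha10 -4.77, Sema7a -2.98, Sema4a -2.81, Slit1 -1.97, Robo2 -1.96, Plxna4 -1.89, Sema4f -1.86, Epha2 -1.84, Nrp2 -1.74, Ephb6 -1.73, Slit2 -1.52, Efna2 -1.13, Sema3a -0.91, Efnb2 -0.89, Plxna3 -0.76, Sema4b -0.71 and Plxna1 -0.47.

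Within the 6 Vcam1KO libraries, single libraries stood apart from the other 5 for 3 members. The third Vcam1KO1 library was high for Sema3b, at 28.6 CPM, and for Plxnb3, at 1.48 CPM, and the first Vcam1KO1 library was high for Robo3, at 0.255 CPM. They were picked by Dixon's ratio of gap to range at its 95% critical value, which by its construction picks about 1 group in 20 by chance. Without the third Vcam1KO1 library the difference of Sema3b between the clones was 1.34 (adjusted p = 0.048) instead of 2.18. The calls between the clones that were lost with at least 1 library left out were those of Efnb1, Efnb2, Ephb2, Ephb3, Ntn4, Robo1, Sema3e, Sema3g and Slit3.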

How the results depend on the processing

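No paired analysis was possible because the labels give no replicate numbers that groups share. Against limma-voom, DESeq2, upper-quartile normalization, other filters on low counts, the average of the clone contrasts and fits on 6 libraries, every count of members higher or lower stayed within 1.5 times its value. The pooled test takes both clones as 1 group, so a difference between them adds to its spread. Efnb2, Epha1, Epha4, Epha10, Ephb4, Plxna4, Plxnb1, Plxnb3, Sema3b and Sema7a did not pass it but passed in the average of the clone contrasts. Testing against a 2-fold change left 9 members higher and 10 lower in the pooled Vcam1KO libraries, 12 higher and 14 lower in Vcam1KO1 cells, 13 higher in Vcam1KO2 cells, and 3 higher and 9 lower between the clones. Leaving out each library gave 13 to 20 higher and 13 to 19 lower in the pooled comparison, 21 to 23 and 20 to 25 in Vcam1KO1 cells, 22 to 25 and 17 to 23 in Vcam1KO2 cells, and 11 to 18 and 16 to 19 between the clones, where 11 came from the fit without the first Vcam1KO2 library. Of 1537 recomputed values of named members, each in the comparisons for which its gene was named, 1483 kept their direction and their side of the threshold, 0 reversed and 54 fell short of it, 27 of these against a 2-fold change and the other 27 in 5 genes (Plxna2, Slit1, Sema6a, Ephb2 and Sema3e). The calls of Ephb2 and Sema3e were lost between the clones only, with adjusted p values up to 0.092 for Ephb2 and 0.09 for Sema3e with a library left out. Members under 1 CPM, such as Epha1 and Slit3, rest on few counts, so the prior count weighs on their fitted fold changes.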
